A study of Mus musculus with 8 samples.

Results

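The genes described here are Trem2 and 8 genes that are read together with it as the signature of lipid-associated macrophages, namely Tyrobp, Cd9, Cd63, Gpnmb, Spp1, Fabp5, Lgals3 and Lpl. They were found by matching the Ensembl identifiers of the deposited count table to gene symbols, which gave 9 of the 56748 genes in the table, and all 9 passed the filter on low counts, as 16780 genes did. Wild-type (WT) female mice were the source, and cells of their inguinal fat pads were collected on magnetic beads against F4/80, a surface protein of macrophages. In the Aldara group (4 libraries) shaved back skin had been treated on 3 consecutive days with 62.5 mg of Aldara cream. Its active agent, at 5%, is imiquimod, which activates the RNA sensor TLR7. In the Vehicle group (4 libraries) the skin had received an equal volume of control cream, a mixture of Boots Aqueous Cream and Vaseline Lanette Cream, and fat pads of both groups were collected 24 h after the final treatment. Each library pooled about 30000 cells from 6 fat pads, and preparations entered the study when flow cytometry found over 90% of cells to carry both F4/80 and CD64. The age of the mice is not given in the sources used here. Whether the pools of a group held different mice is not stated in the labels, and p-values therefore describe the spread between pools, which may be technical.

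Trem2 encodes an immunoglobulin-like receptor that binds lipids and lipoproteins and has no signalling motif of its own. It pairs with DAP12, the product of Tyrobp, whose phosphorylated tyrosines recruit the kinase Syk. In obese adipose tissue, macrophages that surround dying adipocytes carry Trem2 together with genes of lipid uptake, lysosomes and matrix contact, and they have been named lipid-associated macrophages. The other members cover these functions. Lpl is a secreted lipase, Fabp5 an intracellular fatty-acid carrier, Cd9 and Cd63 are tetraspanins of the cell surface and of lysosomes and exosomes, Gpnmb is a transmembrane glycoprotein, Spp1 is the secreted protein osteopontin and Lgals3 is galectin-3.

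The sequences just upstream of the start sites of Trem2 and Cd9 are shown because these were the members that fell. They are the 250 bases before the RefSeq start on build GRCm38.p6, 5′ to 3′ on the strand of the gene, and capitals mark the motifs found. Trem2 lies on the plus strand (chr17:48346151-48346400) and Cd9 on the minus strand (chr6:125494761-125495010).
Trem2: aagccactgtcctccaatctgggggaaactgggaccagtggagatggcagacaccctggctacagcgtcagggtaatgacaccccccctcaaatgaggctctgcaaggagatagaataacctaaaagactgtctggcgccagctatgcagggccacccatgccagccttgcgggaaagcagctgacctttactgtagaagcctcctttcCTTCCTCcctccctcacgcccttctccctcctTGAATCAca
Cd9: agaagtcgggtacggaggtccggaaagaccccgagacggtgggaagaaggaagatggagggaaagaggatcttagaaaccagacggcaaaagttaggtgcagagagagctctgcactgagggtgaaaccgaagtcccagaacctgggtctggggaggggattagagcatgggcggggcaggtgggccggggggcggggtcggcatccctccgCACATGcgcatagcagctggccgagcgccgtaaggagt
Each window was searched on both strands for GAGGAAG (the core bound by PU.1, a myeloid factor) and for CACGTG and CATGTG (E-boxes used by lysosomal MiT/TFE factors). It was also searched for TGANTCA, a loose form of the AP-1 site, which has C or G in the middle where N allows any base. The Trem2 window held GAGGAAG on its opposite strand, starting 41 bases before the start site, and TGANTCA starting 9 bases before it. The latter reads TGAATCA, with A in the middle, and is thus not the AP-1 site itself. The Cd9 window held CATGTG on its opposite strand, 38 bases before the start site. Among all 32851 windows of the table, 10.6% held GAGGAAG, 6.75% TGANTCA, 12.3% CATGTG and 6.02% CACGTG. The table gave 7 windows for 6 of the 9 members, and GAGGAAG also stood 113 bases before a start of Spp1 and 60 bases before that of Cd63. In the windows of Gpnmb and Lgals3 and at the second start of Spp1 none of these letters were found. A match describes the letters of a window and does not show that a factor binds there.

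The libraries held from 19537607 to 24340674 counts in Aldara and from 21874780 to 34471508 in Vehicle, so that 1 count was worth 0.0282 to 0.0532 CPM (reads of a gene scaled to a common library size). Levels are CPM scaled by TMM factors, and fold changes are Aldara over Vehicle on the log2 scale, tested with edgeR's quasi-likelihood test and Benjamini-Hochberg adjustment over all 16780 genes. The macrophage label was checked against 20 macrophage and pan-leukocyte genes, whose summed level lay between 4367 and 11755 CPM in Aldara and between 1841 and 3829 CPM in Vehicle. Epithelial transcripts were more abundant, with 16 markers summing to 15510 to 19661 CPM in Aldara and 16653 to 22364 CPM in Vehicle. Neither list had a marker at 0. The geometric mean of the 20 macrophage genes was 1.5 higher in Aldara on the log2 scale. Of the 20 genes, 13 rose (8 without Aldara replicate 3 or without Vehicle replicate 1, 2 or 4, 7 without Aldara replicate 4, 6 with no filter on low counts, and 18 with the replicate block or in DESeq2), among them Adgre1 by 3.55 (SE 0.40), Itgam by 2.99 (SE 0.39), Ptprc by 1.86 (SE 0.30), Fcer1g by 2.35 (SE 0.37) and C1qa by 1.58 (SE 0.34). The adjusted p was 0.0201 for C1qa, which did not pass without Aldara replicate 3 or 4, Vehicle replicate 1, 2 or 4 (highest 0.073) or the filter on low counts (0.105), and at most 0.0064 for the others named. Cd68 measured 133 ± 47.3 CPM in Aldara and 72.6 ± 17.3 CPM in Vehicle (SD, n = 4 each, edgeR adjusted p = 0.0666). It passed when replicate numbers were fitted as a block (0.00233), when Aldara replicate 1 was left out (0.0101) and with the robust option off (0.0482). In DESeq2 it passed too (adjusted p = 0.00823). Adgre1, the largest riser of the list and a denominator below, encodes the surface protein bound by the beads. Fcgr1 encodes the other protein of the flow cytometry check. It did not pass, with overlapping groups (log2 fold change 0.42, SE 0.30, adjusted p = 0.436). Cx3cr1 was lower in Aldara and did not pass (−0.31, adjusted p = 0.568). Mertk (1.14, adjusted p = 0.0515), Mrc1 (0.95, 0.0546) and Cd163 (1.09, 0.0734) were higher but did not pass. In bulk RNA, fewer cells of a type and less RNA per cell cannot be told apart.

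Of the 9 genes, 2 fell (Trem2 and Cd9), 2 rose (Tyrobp and Lpl) and 5 did not pass the test. Among all genes tested 3.86% fell, 6.98% rose and 10.8% passed in either direction. The median log2 fold change of the 9 genes was −0.14, beside 0.00577 over all genes tested. The groups did not overlap for the same 4 members, with Aldara above for Tyrobp and Lpl and Vehicle above for Trem2 and Cd9. Among all genes tested 17.8% had groups that did not overlap, 9.97% with Aldara above and 7.79% with Vehicle above. The members did not move as 1 block, since the receptor Trem2 was lower and its adaptor Tyrobp higher in the same libraries. With other scalings (DESeq2 size factors, upper-quartile factors or library totals) these 4 calls kept their direction and their side of the threshold. All-gene calls were 64.4% rises under TMM and 49.7% under upper-quartile factors, while the median log2 fold change moved by less than 0.1 between scalings.

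**Figure D1:**
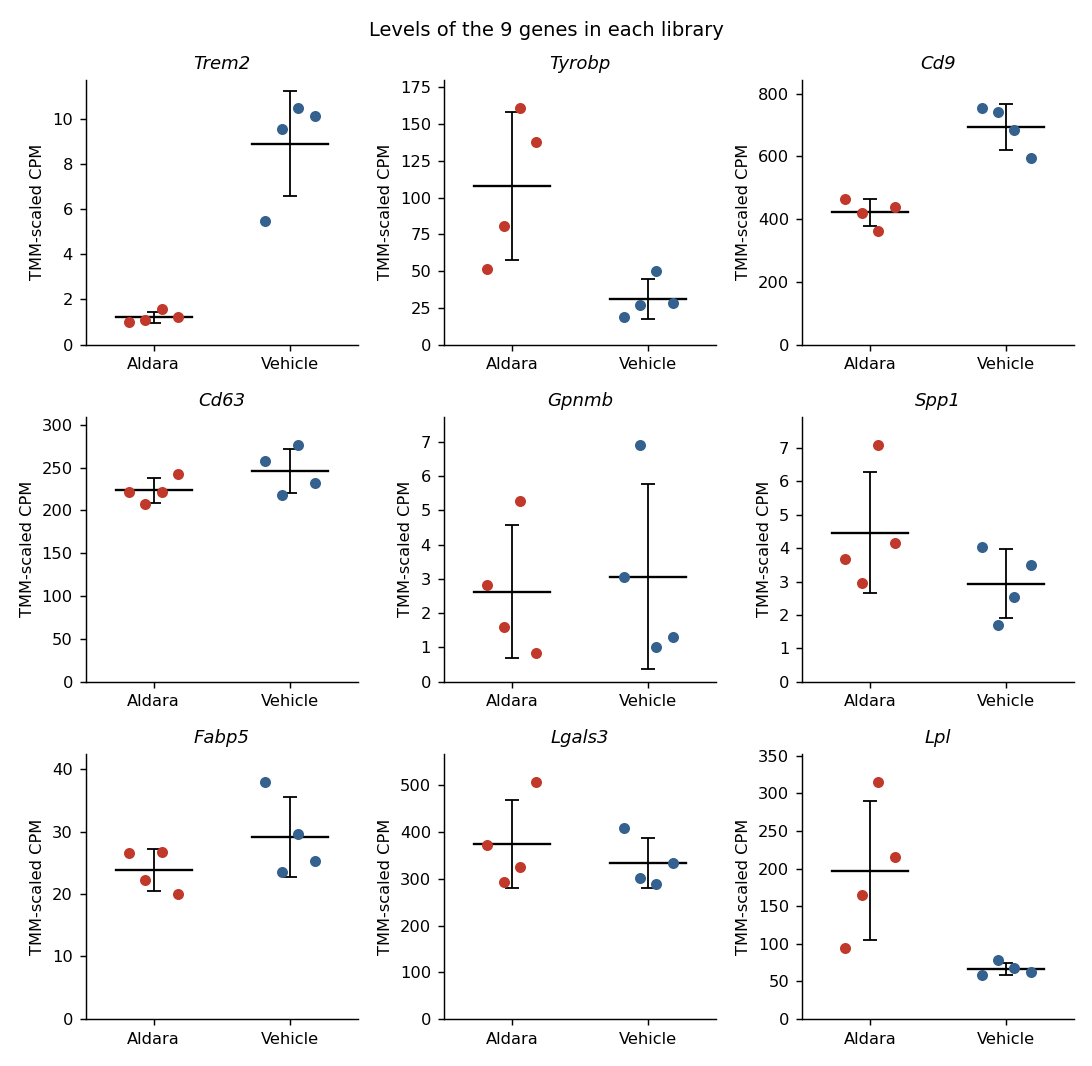
TMM-scaled CPM (y axes, from 0) of the 9 genes in the 4 Aldara and 4 Vehicle libraries. Points are libraries in order of replicate number, and lines and bars are the mean and SD. The Aldara points of Trem2 (0.982 to 1.56 CPM) and Cd9 (364 to 464 CPM) lie below all Vehicle points, those of Tyrobp and Lpl lie above them, and the points of the other 5 genes overlap.

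Trem2 (ENSMUSG00000023992) measured 0.982, 1.08, 1.56 and 1.22 CPM in Aldara replicates 1 to 4, against 5.49, 9.55, 10.5 and 10.1 CPM in Vehicle replicates 1 to 4. Each Aldara library was below each Vehicle library, and Vehicle replicate 1 was the lowest of its group. Behind these values stood 23, 27, 38 and 23 reads in Aldara and 117, 209, 371 and 315 reads in Vehicle. The highest 95% exact Poisson limit in Aldara was 52.2 reads and the lowest limit in Vehicle 96.8 reads, where intervals cover counting error alone, because reads copied by PCR and not tagged per molecule are not independent. Trem2 fell by 2.88 on the log2 scale (SE 0.25, edgeR adjusted p = 0.000794), which is a 7.34-fold lower level. This was p-value number 4, counted from the smallest, of the 16780 genes, and 0.209% of them had a log2 fold change as low or lower. By replicate number the difference was −2.48, −3.15, −2.74 and −3.05, thus lower in 4 of 4 pairs.

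Tyrobp (ENSMUSG00000030579), the adaptor DAP12, measured 51.7, 80.7, 161 and 138 CPM in Aldara and 18.7, 26.8, 50.3 and 28.6 CPM in Vehicle. The groups did not overlap, although Aldara replicate 1 (51.7 CPM) lay close to Vehicle replicate 3 (50.3 CPM). Tyrobp rose by 1.79 (SE 0.40, adjusted p = 0.0221), or 3.45-fold. The call was lost without Aldara replicate 3 (adjusted p = 0.0599) or 4 (0.0803), without Vehicle replicate 1 (0.0628), 2 (0.0632) or 4 (0.058), and with no filter on low counts (0.115). With the replicate number as a block its adjusted p was 0.000139, and it was higher in Aldara in 4 of 4 pairs. Csf1r, through which macrophages receive their survival signal, measured 321, 404, 714 and 732 CPM in Aldara and 180, 265, 346 and 302 CPM in Vehicle. The groups overlapped, and Csf1r did not pass the test (log2 fold change 0.99, SE 0.30, adjusted p = 0.0648). It passed with the replicate block (adjusted p = 0.00114), without Aldara replicate 1 (0.0169) and with the robust option off (0.0465). In DESeq2 it passed too (adjusted p = 0.00506). Of its exonic bases 873 (15.1%) overlap Hmgxb3 on the opposite strand, which the unstranded kit cannot separate.

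Set against Csf1r within each library, where no scaling between libraries enters, Trem2 gave 0.305, 0.266, 0.219 and 0.167 counts per 100 Csf1r counts in Aldara replicates 1 to 4. In Vehicle replicates 1 to 4 it gave 3.04, 3.60, 3.03 and 3.35 counts per 100 Csf1r counts. The Vehicle libraries thus lay within 3.03 to 3.60, although their Trem2 level alone ran between 5.49 and 10.5 CPM, and the Aldara libraries lay at or below 0.305. The mean ratio was 0.24 ± 0.0598 in Aldara and 3.25 ± 0.274 in Vehicle (SD, n = 4 each). Of all genes tested, 24.4% had a ratio to Csf1r with all Vehicle libraries above all Aldara libraries, and 1.42% had the opposite. The log2 ratio fell by 3.80 (SE 0.20, two-sided exact permutation test, p = 0.0286, and 0.0286 after Benjamini-Hochberg adjustment over the 2 ratios), where 0.0286 is the smallest p that 4 against 4 libraries can give.

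Set against its own adaptor, Trem2 gave 1.90, 1.33, 0.972 and 0.887 counts per 100 Tyrobp counts in Aldara and 29.3, 35.7, 20.8 and 35.4 in Vehicle. The groups did not overlap. Because Tyrobp itself was higher in Aldara, 48.7% of all genes tested had a ratio to Tyrobp with all Vehicle libraries above all Aldara libraries, and 0.405% had the opposite. The log2 ratio fell by 4.61 (SE 0.31, two-sided exact permutation test, p = 0.0286, adjusted 0.0286), again the smallest p of this design. With Ptprc, Cd68, C1qa, Fcer1g, Aif1, Laptm5 or Adgre1 as denominator the log2 difference lay between −6.29 (Adgre1) and −3.69 (Cd68), and with the geometric mean of the 20 macrophage genes it was −4.36. The same permutation p of 0.0286 was found with each of these denominators. Trem2 alone did not overlap between groups, and each of these denominators had a higher mean in Aldara. This p therefore adds nothing to the fall of Trem2 itself. The share of all genes with such a ratio was not computed for them. With libraries paired by number, exact sign flips gave p = 0.125 for both the ratio to Csf1r and that to Tyrobp, the smallest p that 4 pairs can give. These ratios compare reads of genes of different length and do not give numbers of molecules.

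**Figure D2:**
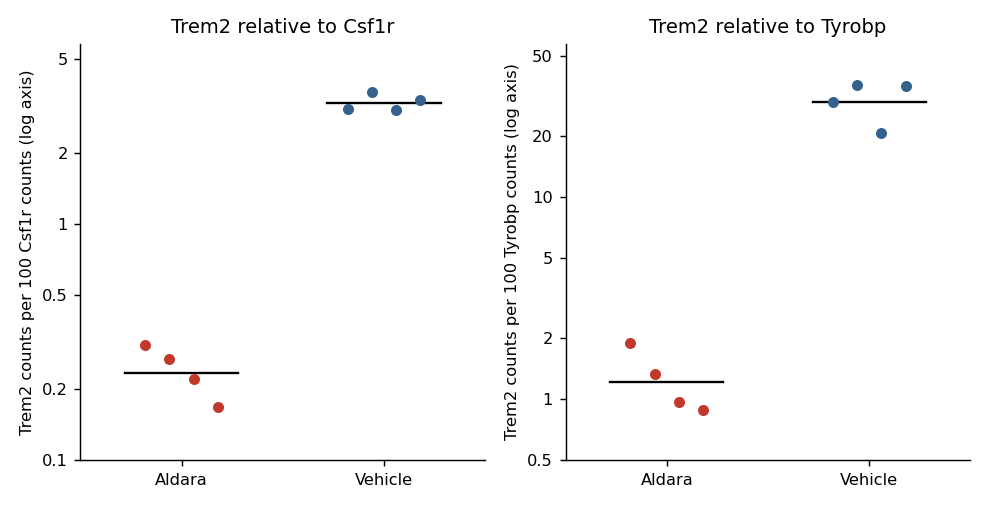
Trem2 counts per 100 Csf1r counts (left) and per 100 Tyrobp counts (right) in each library, on log axes. Points are libraries in order of replicate number and bars are geometric means. All 4 Aldara libraries lie at or below 0.305 per 100 Csf1r counts and at or below 1.90 per 100 Tyrobp counts, and all 4 Vehicle libraries at or above 3.03 and 20.8.

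The other members relative to Csf1r are given as a description. Cd9 stood at 51.0 to 144 counts per 100 Csf1r counts in Aldara and 197 to 418 in Vehicle, Cd63 at 31.1 to 68.8 and 76.7 to 143, and Fabp5 at 2.73 to 8.25 and 8.37 to 21.02. For these 3 genes the groups did not overlap, as was the case in this direction for 24.4% of all genes tested. Csf1r, the denominator, was itself 0.99 higher in Aldara on the log2 scale, and the levels of Cd63 and Fabp5 alone overlapped. Tyrobp was the member whose ratio to Csf1r was higher in every Aldara library, at 16.1 to 22.5 in Aldara and 9.45 to 14.5 in Vehicle. For Gpnmb, Spp1, Lgals3 and Lpl the ranges overlapped, with Lpl at 29.4 to 44.1 in Aldara and 19.4 to 32.3 in Vehicle. Against the geometric mean of the 20 macrophage genes, Lpl differed by −0.056 (SE 0.19) and Tyrobp by 0.25 (SE 0.14) on the log2 scale, while Trem2 differed by −4.36 (SE 0.23).

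**Figure D3:**
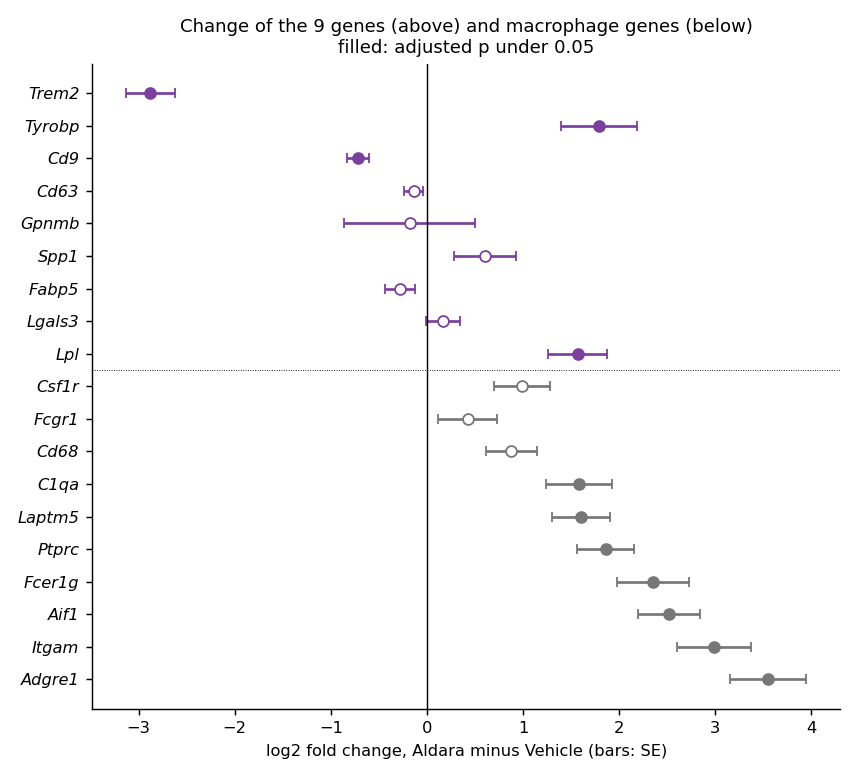
Log2 fold change, Aldara minus Vehicle (x axis), of the 9 genes (purple, above the dotted line) and of 10 macrophage and leukocyte genes (grey, below it). Bars are SE and filled points passed the adjusted p threshold of 0.05. Trem2 (−2.88) lies furthest to the left, while Tyrobp (1.79) and Lpl (1.57) lie among the macrophage genes.

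DAP12 serves many receptors, and Trem2 was set beside other TREM genes and receptors listed as partners of DAP12. Trem1, a receptor of myeloid cells encoded beside Trem2, rose at a very low level, with 54 reads over the Aldara libraries and 18 over the Vehicle libraries (log2 fold change 1.78, SE 0.39, adjusted p = 0.0155, and 0.0512 without Vehicle replicate 4). Trem3 had 11 reads in Aldara and 3 in Vehicle, Treml1 3 and 1, Treml2 11 and 27, and Treml4 43 and 22, all under the filter. Trem1 was the one tested gene of that family of 5 in the table. Of 10 tested receptors listed as partners of DAP12, 8 rose and 2 fell, with a list median of 1.87. Among all genes tested 6.98% rose and 3.86% fell. The other listed receptors were under the filter. Which adaptor each of them uses was not checked here, and some may signal through another one. Sirpb1a rose by 5.74 (SE 0.52), Sirpb1c by 3.68 (SE 0.53) and Pilrb1 by 1.71 (SE 0.32), where these genes have close paralogs that may share reads. Over the Vehicle libraries Sirpb1a had 14 reads, Sirpb1b 18 and Sirpb1c 12, against 648, 259 and 129 over the Aldara libraries. They passed the filter through Aldara alone. A gene this low in Vehicle is tested only if it is higher in Aldara, so these rises carry little weight in the list. Siglech, a lectin best known from plasmacytoid dendritic cells and microglia, fell to 1.01 ± 0.218 CPM in Aldara, against 3.03 ± 1.58 CPM in Vehicle (log2 fold change −1.60, SE 0.35, adjusted p = 0.0163). Clec5a, a myeloid lectin, fell by 1.22 (SE 0.33, adjusted p = 0.0371), a call lost without Aldara replicate 1, 2 or 4 or Vehicle replicate 1, 2 or 4 (highest adjusted p = 0.102). With no filter on low counts 5 of these receptors rose.

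A share was formed of all reads on 16 receptor genes (Trem2, Trem1, Trem3 and the 13 listed receptors, whose adaptors were not checked). Of these reads Trem2 took 2.02%, 1.47%, 1% and 0.945% in Aldara replicates 1 to 4. In Vehicle replicates 1 to 4 it took 21.5%, 24.4%, 23.1% and 25%. The exact binomial 95% intervals ran between 0.6% and 3.01% over the Aldara libraries and between 18.1% and 27.5% over the Vehicle libraries, for counting error only. Cd300ld held the highest share of these reads in both groups, with 44.5% in Aldara and 29.5% in Vehicle. The share of Trem2 thus depends on which receptors are listed. This share was formed after the values of the receptors were seen and is a description of reads, not of receptor numbers.

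Downstream of DAP12, 12 of 20 tested signalling genes rose, 8 did not pass, and the list median was 0.95. With the replicate block 15 rose, and in DESeq2 14. Lyn, a kinase that phosphorylates the tyrosines of such adaptors, rose by 1.66 (SE 0.26, adjusted p = 0.00591), and Syk, the kinase recruited by DAP12, by 1.91 (SE 0.31, adjusted p = 0.00666). Hcst, which encodes the sister adaptor DAP10, measured 2.08 ± 0.77 CPM in Aldara and 0.941 ± 0.468 CPM in Vehicle (adjusted p = 0.0957). Among 5 tested genes of ligands and sheddases of TREM2, Clu, a lipoprotein-bound chaperone, rose to 1257 ± 126 CPM in Aldara, against 886 ± 122 CPM in Vehicle (log2 fold change 0.50, SE 0.12, adjusted p = 0.0268). That call was lost without Aldara replicate 1 or 3 or Vehicle replicate 1, 2 or 3 (highest adjusted p = 0.0792). Adam10, a protease that sheds the ectodomain of TREM2, fell by 0.42 (SE 0.09, adjusted p = 0.0173), a call lost without Aldara replicate 3 (0.0566) or Vehicle replicate 2 (0.053). Apoe, a lipoprotein ligand of TREM2, measured 3712 ± 1496 CPM in Aldara and 1882 ± 627 CPM in Vehicle and did not pass (adjusted p = 0.0894). With the replicate block 2 genes of this list rose.

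Lpl (ENSMUSG00000015568), which releases fatty acids from triglyceride-rich lipoproteins, measured 94.8, 164, 315 and 215 CPM in Aldara and 58.2, 77.7, 67.3 and 63.0 CPM in Vehicle. All Aldara libraries were above all Vehicle libraries, and they spread over a 3.32-fold range, against 1.34-fold in Vehicle. Lpl rose by 1.57 (SE 0.31, adjusted p = 0.0141), or 2.96-fold. The call was lost without Aldara replicate 4 (adjusted p = 0.0543) and with no filter on low counts (0.0814). Aldara replicate 1 was the lowest and replicate 3 the highest of its group for Lpl, Tyrobp and the geometric mean of the macrophage genes alike. Adipocytes also make Lpl, and of 9 tested adipocyte markers Cfd (2.11, SE 0.28), Cidec (2.12, SE 0.39) and Adipoq (1.14, SE 0.30) rose. Lipe (79.9 ± 8.14 CPM in Aldara and 98.4 ± 9.85 CPM in Vehicle, adjusted p = 0.0829) and Fabp4, the abundant genes of this list, had log2 fold changes of −0.30 and −0.24 and did not pass. The risers were at lower levels than Lipe. Cfd measured 13.2 ± 5.98 CPM in Aldara and 3.04 ± 0.144 CPM in Vehicle, and Cidec 2.83 ± 1.14 and 0.664 ± 0.305 CPM. Adipoq measured 1.25 ± 0.323 CPM in Aldara and 0.569 ± 0.113 CPM in Vehicle. Plin1, at 1.10 ± 0.692 CPM in Aldara and 0.725 ± 0.293 CPM in Vehicle, did not pass (adjusted p = 0.519). The call on Adipoq was lost with no filter on low counts (0.0694) and on leaving out any 1 library other than Aldara replicate 2 (highest adjusted p = 0.0954). The summed level of the 10 adipocyte markers, of which none was at 0, lay between 173 and 299 CPM in Aldara and between 236 and 277 CPM in Vehicle, and their part in the rise of Lpl was not tested.

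Of 12 tested partners and regulators of lipoprotein lipase, Pcsk6, a convertase that can cleave it, fell to 2.98 ± 0.568 CPM in Aldara, against 9.51 ± 4.21 CPM in Vehicle (log2 fold change −1.67, SE 0.29, adjusted p = 0.00627). The other 11 did not pass, and the list median was −0.14. With the replicate block or without Vehicle replicate 3, 2 of the 12 fell, and without Aldara replicate 1, 1 rose. Gpihbp1, which carries the lipase across capillary endothelium, measured 6.73 ± 1.65 CPM in Aldara and 6.66 ± 1.77 CPM in Vehicle (adjusted p = 0.978).

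Fabp5 (ENSMUSG00000027533) measured 26.5, 22.2, 26.8 and 19.96 CPM in Aldara and 37.9, 23.5, 29.6 and 25.3 CPM in Vehicle. The groups overlapped and the difference did not pass the test (log2 fold change −0.28, SE 0.16, adjusted p = 0.291), though Fabp5 was lower in Aldara in 4 of 4 pairs. Processed copies of Fabp5 in the genome may share its reads. Of the 9 other fatty-acid-binding protein genes, Fabp4, the carrier of adipocytes and macrophages, alone passed the filter, at 131 ± 40.3 CPM in Aldara and 156 ± 23.9 CPM in Vehicle (adjusted p = 0.521).

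Cd9 (ENSMUSG00000030342), a tetraspanin of the cell surface, measured 464, 420, 364 and 439 CPM in Aldara and 754, 741, 684 and 595 CPM in Vehicle. Each Aldara library was below each Vehicle library. Cd9 fell by 0.72 (SE 0.11, adjusted p = 0.00476), a 1.64-fold lower level, and with each of the 8 libraries left out in turn it still passed (highest adjusted p = 0.0185). Cd63 (ENSMUSG00000025351), the tetraspanin of lysosomes and exosomes, measured 221, 208, 222 and 243 CPM in Aldara and 258, 218, 276 and 232 CPM in Vehicle. The groups overlapped (log2 fold change −0.14, SE 0.10, adjusted p = 0.424). Processed copies of either gene, which were not searched for, may share reads. Of the exonic bases of Cd9, 218 (10.7%) overlap Gm26728 on the opposite strand, which the unstranded kit cannot separate.

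Cd9 and Cd63 are not restricted to macrophages. Epithelium, fibroblasts and endothelium express both. The 16 epithelial markers did not pass in edgeR (3 were lower and none higher at an unadjusted p under 0.05), 3 were lower in DESeq2 and 0 passed in voom. Krt19, the epithelial marker of smallest p, measured 2172 ± 275 CPM in Aldara and 2975 ± 456 CPM in Vehicle (adjusted p = 0.0636). It passed with the block (0.0118), with upper-quartile factors (0.0357), with no filter (0.0214) and when Aldara replicate 1 was left out (0.0371). In DESeq2 it passed too (adjusted p = 0.00923). Of 9 fibroblast markers 5 fell, with Col3a1 at 28.2 ± 9.86 CPM in Aldara and 123 ± 70.7 CPM in Vehicle, a call lost with no filter on low counts (0.0561). Their summed level lay between 107 and 189 CPM in Aldara and between 261 and 642 CPM in Vehicle, with none at 0. The part of either cell type in the falls of Cd9 and Trem2 was not tested.

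Of 19 other tested tetraspanins, 5 rose, 2 fell and 12 did not pass, with a list median of 0.083. The risers of smallest p were the leukocyte tetraspanins Cd37 (log2 fold change 1.97, SE 0.32, adjusted p = 0.00666), Cd53 (1.79, SE 0.33, adjusted p = 0.0104) and Tspan32 (1.94, SE 0.39, adjusted p = 0.0161). Tspan13 fell by 0.96 (SE 0.26, adjusted p = 0.0486) and Tspan9 by 0.69 (SE 0.18, adjusted p = 0.0355). With no filter on low counts the calls on Cd53 (adjusted p = 0.0636), Tspan32 (0.0816), Tspan9 (0.0525) and Tspan13 (0.169) were lost. That on Tspan32 was also lost without Aldara replicate 4 (0.0576). Those on Tspan9 and Tspan13 were lost without Aldara replicate 2, 3 or 4 or Vehicle replicate 2 or 4, that on Tspan9 also without Vehicle replicate 1 and that on Tspan13 also without Aldara replicate 1 (highest adjusted p over these omissions 0.0967 and 0.116). The risers numbered 3 without Aldara replicate 3 or Vehicle replicate 4 and 2 without Aldara replicate 4 or with no filter on low counts. Of 8 partners of Cd9 and Cd63, Hbegf, a membrane-bound growth factor, rose by 0.77 (SE 0.19, adjusted p = 0.0287), a call lost with no filter on low counts (0.087) and without Aldara replicate 2 or 4 or Vehicle replicate 1, 2 or 3 (highest adjusted p over these omissions 0.0793). The other 7 did not pass, though 1 of them fell with the replicate block.

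Gpnmb (ENSMUSG00000029816), a glycoprotein of macrophage lysosomes and pigment cells, measured 2.82, 1.59, 5.27 and 0.852 CPM in Aldara and 3.05, 6.90, 1.02 and 1.32 CPM in Vehicle. It varied most among the members, over a 6.19-fold range in Aldara and a 6.79-fold range in Vehicle, and no group was consistently higher (log2 fold change −0.18, SE 0.68, adjusted p = 0.906). The direction reversed without Vehicle replicate 2 (0.60) or Aldara replicate 4 (0.088) and with voom (0.078). Of 6 melanocyte markers, Sox10 measured 122 ± 38.6 CPM in Aldara and 133 ± 27 CPM in Vehicle and Pmel 2.02 ± 0.262 CPM in Aldara and 2.52 ± 0.537 CPM in Vehicle, a level near that of Gpnmb, and neither passed the test (adjusted p = 0.817 and 0.411). The other 4 had few reads, with 3 of Mlana over the Aldara libraries and 0 over the Vehicle libraries, 1 and 6 of Dct, 7 and 2 of Tyrp1, and 0 of Tyr in both groups. The 6 markers summed to 67.9 to 151 CPM in Aldara and 111 to 165 CPM in Vehicle. Nearly all of this sum was Sox10, so it is a reading of that gene rather than of pigment cells. The part of these markers in the level of Gpnmb was not tested. Of the 4 MiT/TFE genes, factors that act on lysosomal genes and on Gpnmb, Tfe3 rose to 105 ± 14.3 CPM in Aldara, against 66.7 ± 3.23 CPM in Vehicle (log2 fold change 0.65, SE 0.10, adjusted p = 0.00448). Mitf measured 12.1 ± 3.24 CPM in Aldara and 7.73 ± 2.39 CPM in Vehicle (adjusted p = 0.133). With the replicate block 2 of the 4 rose.

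Spp1 (ENSMUSG00000029304), which encodes osteopontin, measured 3.67, 2.95, 7.08 and 4.15 CPM in Aldara and 4.03, 1.69, 2.54 and 3.50 CPM in Vehicle. The groups overlapped and the difference did not pass (log2 fold change 0.60, SE 0.32, adjusted p = 0.274). Part of its exons (309 bases, 18.8%) overlaps Gm42793. Of 9 tested receptors and cleaving enzymes of osteopontin, 4 rose, 5 did not pass, and the list median was 0.27. Cd44, which binds hyaluronan and osteopontin, rose to 136 ± 24.5 CPM in Aldara, against 58.9 ± 3.26 CPM in Vehicle (log2 fold change 1.20, SE 0.13, adjusted p = 0.000956). The integrin chains Itga5 (0.45, SE 0.11, adjusted p = 0.0285) and Itga9 (0.92, SE 0.22, adjusted p = 0.0307) rose as well. Their calls were both lost without Aldara replicate 3 or 4 or Vehicle replicate 2 or 3, that on Itga5 also without Vehicle replicate 1 and that on Itga9 also without Vehicle replicate 4 (highest adjusted p = 0.0941 and 0.0858). The risers of this list numbered 1 without Aldara replicate 3 or 4 or Vehicle replicate 2 or 3, 2 without Vehicle replicate 1 or 4 or with no filter on low counts, and 3 with the replicate block, under which Itga9 did not pass (0.0697, and 0.12 with no filter).

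Lgals3 (ENSMUSG00000050335), a galectin that binds sugars on damaged lysosomes and cell surfaces, measured 371, 293, 326 and 507 CPM in Aldara and 409, 302, 290 and 333 CPM in Vehicle. The groups overlapped (log2 fold change 0.17, SE 0.17, adjusted p = 0.603), and without Aldara replicate 4, the highest library, the value was −0.035. Of 8 other genes of the galectin list, 0 passed in edgeR or voom, 1 in DESeq2, and 3 had an unadjusted p under 0.05 in edgeR. Lgals7, an epithelial galectin and the gene of smallest p, measured 21.4 ± 2.31 CPM in Aldara and 33.1 ± 10.4 CPM in Vehicle (adjusted p = 0.0642). It passed without Vehicle replicate 2 (0.044) or 4 (0.0482), with upper-quartile factors (0.0489) and in DESeq2 (adjusted p = 0.0168). Without Aldara replicate 1 another galectin rose.

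**Figure D4:**
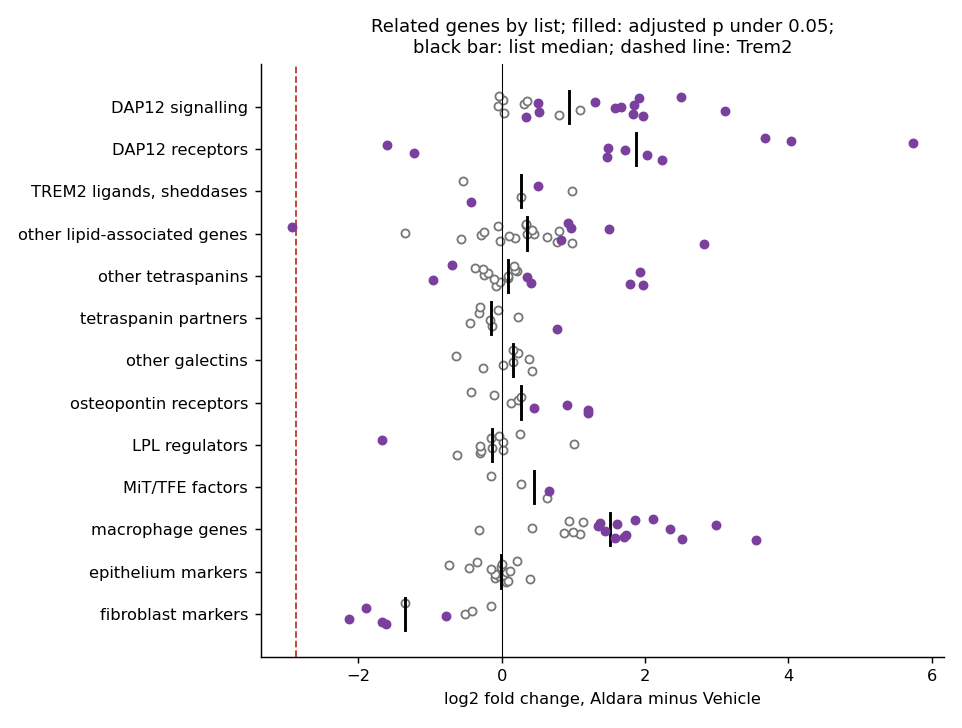
Log2 fold change, Aldara minus Vehicle (x axis), of the tested genes of each list (rows). Filled points passed the adjusted p threshold of 0.05, black bars are list medians and the dashed line marks Trem2 (−2.88). Most genes of the DAP12 receptor and DAP12 signalling lists lie to the right of 0, and the epithelium markers lie around 0. Mmp12 (−2.93) among the other lipid-associated genes lies beside Trem2.

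Of 23 other genes reported in lipid-associated macrophages, 5 rose, 1 fell and 17 did not pass, with a list median of 0.36. The riser of smallest p was Acp5, a lysosomal acid phosphatase, at 58.96 ± 25.005 CPM in Aldara and 8.32 ± 1.46 CPM in Vehicle (log2 fold change 2.82, SE 0.31, adjusted p = 0.00203). Lipa, the lysosomal acid lipase, rose by 0.97 (SE 0.16, adjusted p = 0.00638) and Cd36, a fatty-acid and scavenger receptor, by 0.83 (SE 0.15, adjusted p = 0.00716). Mmp12, the macrophage elastase, fell to 0.333 ± 0.232 CPM in Aldara, against 2.56 ± 1.77 CPM in Vehicle (log2 fold change −2.93, SE 0.60, adjusted p = 0.0131). The risers numbered 8 with the replicate block and 10 without Aldara replicate 1.

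Levels per kilobase of the longest principal transcript put the members in order within a group. In Aldara this order was Cd9, Lgals3, Cd63, Tyrobp, Lpl, Fabp5, Spp1, Trem2 and Gpnmb, with Cd9 at 343 ± 34.7 and Trem2 at 1.11 ± 0.235 CPM per kilobase. In Vehicle it was Cd9, Lgals3, Cd63, Tyrobp, Fabp5, Lpl, Trem2, Spp1 and Gpnmb, with Cd9 at 565 ± 58.9 and Trem2 at 8.19 ± 2.13 CPM per kilobase. Neighbours whose libraries overlapped were Cd9 and Lgals3, Lgals3 and Cd63, Cd63 and Tyrobp, Lpl and Fabp5, and Trem2 and Gpnmb in Aldara. In Vehicle they were Lgals3 and Cd63, Tyrobp and Fabp5, and Spp1 and Gpnmb. Trem2 was thus above Spp1 in Vehicle and below it in Aldara on this scale. By the length of all annotated exons, a choice added after the data were seen, Trem2 ranked 9 and Tyrobp 3 in Aldara, while the order in Vehicle was the same.

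The genes whose log2 CPM followed that of Trem2 most closely over the 8 libraries were Tnfsf9 (Pearson r 0.986), Mgl2 (0.984), Arid5a (0.975), Pla2g2d (0.975) and Mcm2 (0.967), among 11004 named genes of at least 5 CPM on average. The 8 points share the division into Aldara and Vehicle, so each r mainly restates that all 5 genes were lower in Aldara. Mgl2, a lectin of macrophages and dendritic cells, measured 4.73 ± 1.86 CPM in Aldara and 65.0 ± 15.5 CPM in Vehicle (log2 fold change −3.79, SE 0.29). Tnfsf9, the ligand 4-1BBL, measured 7.90 ± 0.888 CPM in Aldara and 20.6 ± 4.53 CPM in Vehicle, and Pla2g2d, a secreted phospholipase, 3.33 ± 0.949 and 16.2 ± 6.25 CPM. Arid5a measured 211 ± 7.71 CPM in Aldara and 313 ± 12.6 CPM in Vehicle and Mcm2, a replication helicase subunit, 27.2 ± 0.625 and 41.2 ± 4.17 CPM. Of the members, Cd9 had the highest r with Trem2 (0.861) and Lpl the lowest (−0.751).

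Markers of dendritic cells, which can share the gate, were low. Of 4 tested, Cd209a, a lectin of monocyte-derived dendritic cells, fell to 1.70 ± 0.534 CPM in Aldara, against 6.54 ± 1.21 CPM in Vehicle (log2 fold change −1.95, SE 0.26, adjusted p = 0.00232). The other tested markers did not pass. Zbtb46 measured 6.36 ± 0.854 CPM in Aldara and 5.63 ± 0.919 CPM in Vehicle (adjusted p = 0.584). Clec9a measured 0.663 ± 0.226 CPM in Aldara and 0.544 ± 0.155 CPM in Vehicle (adjusted p = 0.687). Ccr7 measured 0.229 ± 0.236 CPM in Aldara and 0.721 ± 0.274 CPM in Vehicle (adjusted p = 0.101). Flt3 had 4 reads over the Aldara libraries and 7 over the Vehicle libraries, and Xcr1 17 and 2. The summed level of the 7 dendritic markers, none of them at 0, lay between 8.67 and 10.6 CPM in Aldara and between 11.3 and 15.8 CPM in Vehicle, and their part in the fall of Trem2 was not tested. The 2 B cell markers Cd79b and Cd22 passed the filter and rose, by 3.84 (SE 0.40) and 3.08 (SE 0.39). They had 534 and 250 reads over the Aldara libraries and 45 and 35 over the Vehicle libraries. The other listed B cell markers were under the filter. Csf3r, the receptor of granulocyte colony-stimulating factor, rose by 2.10 (SE 0.37), a call lost with no filter on low counts (0.0551). T cell, endothelial and melanocyte markers that were tested (2, 8 and 2 genes) did not pass, whether by edgeR, by DESeq2 or by voom, and 0 had an unadjusted edgeR p under 0.05. The summed B cell markers lay between 5.38 and 13.1 CPM in Aldara and between 0.731 and 1.45 CPM in Vehicle, and the 7 neutrophil markers between 18.8 and 57.7 CPM and between 5.25 and 11.9 CPM, with Ly6g at 0 in all libraries. Nearly all of this sum was Csf3r (37.6 ± 16.9 CPM in Aldara and 8.73 ± 2.75 CPM in Vehicle), which macrophages also express. Over the Aldara and the Vehicle libraries S100a8 had 46 and 10 reads, S100a9 41 and 0, Retnlg 13 and 0 and Mmp8 11 and 1. These genes thus had more reads in Aldara, while Cxcr2 had 2 reads in each group. All of them were under the filter and were not tested.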

How the data were processed

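The authors deposited whole-number counts of reads per Ensembl gene, not normalised, for 8 libraries. Per the labels' protocols, RNA was amplified with a SMARTer ultra-low-input kit after poly-A enrichment. Per the submitters' processing notes, HISAT2 2.0.5 and featureCounts 1.5.0-p3 were used with the mm10 build, and DESeq2 is named without a version. No source used here gives the counting options or the annotation release. Symbols, lengths and overlaps came from GENCODE M21 (52125 of 56748 identifiers matched, 91.9%). Promoter windows came from RefSeq.

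The deposited counts went unchanged into edgeR 4.0.16 (R 4.3.3) (filterByExpr, TMM, robust quasi-likelihood F test, Benjamini-Hochberg over 16780 genes, threshold 0.05). SE were derived from the F statistic. DESeq2 1.42.0, limma 3.58.1 (voom), other scalings, no filter, the replicate block and leaving out each library were alternatives. Where no tool is named beside an adjusted p of a gene, it is from edgeR, in the closing section too. Log2 CPM used a prior count of 2. Trem2 ratios used deposited counts and exact permutation over libraries.

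Same-numbered libraries of the groups deviated together from their group means (correlations 0.108 to 0.228 over genes, against −0.216 to 0.0819 for other pairs). Pairing by number was used as an alternative only, and the main fit and the permutation tests did not pair libraries. The link between same numbers was read from the data, since the labels do not explain the numbers. No libraries were duplicates (lowest chi-square of 18.2 per degree of freedom). On simulated counts for Aldara against Vehicle (16585 genes), 68.2% of changes of 1 and 94.1% of changes of 2 on the log2 scale were recovered, and 4.91% of calls were false. There, 110 genes were changed by 1 and 85 by 2, up or down at random, with libraries drawn independently. In the data 1818 genes passed, with more rises than falls, and same-numbered libraries were linked. The simulated rates therefore need not hold for the data.

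The members, lists and tests were chosen with earlier results of these data known. Genes named are the 9 members, Csf1r and fixed macrophage genes, up to 3 per list and direction by smallest p, the 5 genes most like Trem2, and abundant or defining markers. Hcst, Apoe, Gpihbp1, Mitf, Cd300ld, Plin1, Flt3, Xcr1, Tyr, Mlana, Dct, Tyrp1, Ly6g, Cxcr2 and the untested Trem genes were named after their values were seen. So were Zbtb46, Clec9a, Ccr7, S100a8, S100a9, Retnlg, Mmp8, Sirpb1b, Fcgr1, Cx3cr1, Mertk, Mrc1 and Cd163. Of the genes this rule names, 1 is not reported here.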

Additional observations from a re-analysis of the deposited data

How the results depend on the processing

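Over all genes, 1171 rose and 647 fell. The falls numbered 990 with upper-quartile factors, 1192 with DESeq2 and 1030 with the replicate block. With 1 library left out, rises ranged from 629 (without Aldara replicate 4) to 1405 and falls from 323 (without Aldara replicate 3) to 664. Of the members, 2 rose and 2 fell. With no filter beyond 1 count 0 members rose in edgeR (2 at an unadjusted p under 0.05, 2 in DESeq2 and 2 in voom). With 1 library left out 0 to 2 rose in edgeR, and without Aldara replicate 4 the count was 0 (2 at an unadjusted p under 0.05, 2 in DESeq2 and 1 in voom). The 2 falls, Trem2 and Cd9, passed under each of the 8 settings and 8 omissions, with log2 fold changes of −3.05 to −2.79 for Trem2 and −0.78 to −0.65 for Cd9 over the omissions. The log2 ratio of Trem2 to Csf1r ranged from −3.92 to −3.64 and that to Tyrobp from −4.82 to −4.46 over the omissions. With paired sign flips over the 4 replicate numbers (the replicate block for the ratios) the values stayed −3.80 and −4.61 with p = 0.125 (exact), the smallest p that 4 pairs can give. Gpnmb reversed with voom (0.078), without Aldara replicate 4 (0.088) and without Vehicle replicate 2 (0.60), within −0.77 to 0.60 over the omissions. Lgals3 reversed without Aldara replicate 4 (−0.035), within −0.035 to 0.28. Neither passed the test in any setting, and the cause was not tested. With the replicate block the calls on Csf1r, Cd68, Krt19 and Itga9 differed among the genes of the naming rule, and the calls on the 9 members did not. Depth limits the members of low count, with 23 to 38 reads of Trem2, 16 to 128 of Gpnmb and 74 to 172 of Spp1 per Aldara library and 117 to 371, 36 to 151 and 37 to 109 per Vehicle library.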
